A study of Homo sapiens with 14 samples.

Results

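A small set of adenosines in HEK293T RNA was read as guanosine under DECOR and also under at least 1 of 2 Cas13-based editors, and these shared sites are described here. A shared site was a chromosome and position listed in at least 1 DECOR library and in at least 1 dCas13d-ADAR or REPAIR.t1 library, and in no REPAIRv2 library. Of 26172 distinct sites in the series, 330 (1.26%) met this rule. They were 3.55% of the 9304 sites of DECOR and 1.92% of the 17194 sites listed for dCas13d-ADAR or REPAIR.t1. The sites were chosen by their presence in the lists, which rests on the A-to-G rates the authors reported, so counts of libraries below are descriptions. Tests are given for levels and for contrasts between editors that the rule treated alike. In the test of shared against other sites, the other sites keep those of REPAIRv2, which the rule took out of the shared set.

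HEK293T is a human embryonic kidney line that takes up plasmids readily. An RNA base editor turns chosen adenosines of a transcript into inosine, which a sequencer reports as guanosine. The Cas13-based editors tether the deaminase domain of ADAR, a human enzyme that acts on adenosines in double-stranded RNA, to an inactive Cas13 protein that is steered by a guide RNA. The series title names an evolved bacterial adenosine deaminase, an enzyme family whose natural substrate is a transfer RNA, and the labels do not say which of the editors carries it. Human cells also have ADAR enzymes of their own, which edit transcripts without any added editor, and a position where the genome carries A on some copies and G on others gives the same reading in RNA.

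The titles spell the REPAIR editors Repair.t1 and Repair.v2. The libraries were polyadenylated RNA of HEK293T cells with DECOR and a MALAT1 guide (2 libraries), dCas13d-ADAR with an EZH2 guide (2) or an NT guide (2), REPAIR.t1 with an EZH2_A22 guide (2) or an NT guide (2), and REPAIRv2 with an EZH2_A22 guide (2) or an NT guide (2). DECOR libraries were read for 62 and 160 cycles and all others for 25 and 97, so for DECOR the editor, the guide and the read length cannot be told apart. All 14 libraries came from cells treated with an editor, and what these cells would show untreated was not analysed here. Positions are in hg19 (GRCh37); genes, strands and neighbouring bases were not analysed here, since no sequence or annotation of that build was used. Each deposited list gives the editing level, which is the fraction of A-to-G at the site, and no read counts, so depth is unknown and a site absent from a list may be unedited, below the authors' threshold or thinly covered. Nothing in the labels ties the libraries of a group to separate cultures. The p-values therefore measure only the spread between libraries, which may be technical.

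Many shared sites were seen in few libraries, as were the sites of the lists they come from. Of the 330 sites, 89 (27.0%) were in both DECOR libraries, beside 22.2% of all 9304 DECOR sites. In only 1 of the 8 dCas13d-ADAR and REPAIR.t1 libraries were 121 (36.7%), beside 48.7% of all 17194 sites of these editors. The least supported sites, in 1 DECOR library and 1 of the 8, numbered 95 (28.8%). At the other end, 23 (6.97%) were in all 8 libraries, beside 3.54% of the 17194, and 12 were in all 8 and in both DECOR libraries. dCas13d-ADAR alone accounted for 140 of the 330 and REPAIR.t1 alone for 47, and the remaining 143 were listed for both of these editors. Set against the numbers of sites these editors list, the shared sites were 2.14% of the 6539 sites of dCas13d-ADAR alone, 0.971% of the 4838 of REPAIR.t1 alone and 2.54% of the 5635 of both, all without REPAIRv2 sites.

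A dCas13d-ADAR or REPAIR.t1 site lay at the very position of a DECOR site 343 times (the 330 shared sites and 13 that REPAIRv2 also listed). At each distance from 1 to 30 bases on either side, between 11 and 60 DECOR sites had such a neighbour, with a median of 42. The first count is the rule's own, and a base beside a site can be listed only where it is itself an adenosine, which was not analysed here, so no ratio between these counts is given. The lowest counts were at the bases directly adjoining, 13 on one side and 11 on the other in genome order.

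**Figure D1:**
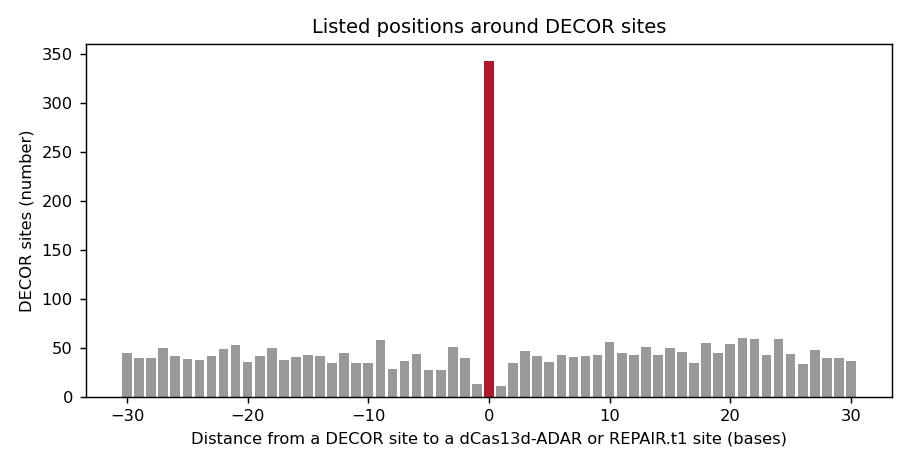
Number of DECOR sites (y axis) that have a dCas13d-ADAR or REPAIR.t1 site at each distance in bases (x axis, in genome order, strand unknown). The bar at distance 0 stands at 343, against 11 to 60 at all other distances shown.

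Sites seen in more dCas13d-ADAR and REPAIR.t1 libraries were listed for DECOR more often. Among the 8372 sites in exactly 1 of the 8 libraries, 1.46% were in a DECOR list. The share was 1.74% for sites in 2 libraries, 2.09% in 3, 2.32% in 4, 2.42% in 5, 3.80% in 6 and 4.57% in 7. It was 4.93% for the 609 sites in all 8. These shares include sites of REPAIRv2, they come from overlapping sets of libraries and they carry no test.

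**Figure D2:**
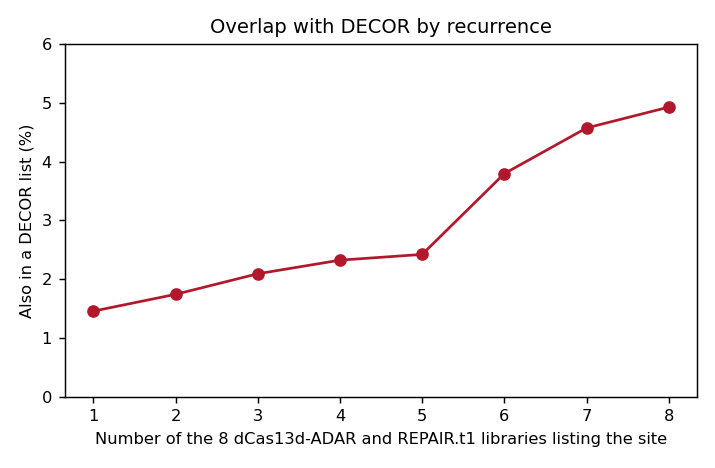
Share of dCas13d-ADAR and REPAIR.t1 sites that are also in a DECOR list (y axis, percent), by the number of the 8 libraries that list the site (x axis). The share is 1.46% for sites in 1 library and 4.93% for sites in all 8.

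Reading the same question in libraries that the choice did not use gave the following values, with sites of REPAIRv2 left out of all sets. Of 211 sites of DECOR replicate 1 that were in a dCas13d-ADAR or REPAIR.t1 list, 42.2% were also in DECOR replicate 2, against 37.3% of the 5292 that were in no such list. Chosen in replicate 2 and read in replicate 1, the shares were 42.8% of 208 and 35.0% of 5635. Of 190 REPAIR.t1 sites in a DECOR list, 75.3% were also listed for dCas13d-ADAR, against 53.4% of the 10283 in no DECOR list. Of 283 dCas13d-ADAR sites in a DECOR list, 50.5% were also listed for REPAIR.t1, against 46.2% of 11891. In all 4 readings the share was higher for sites listed under the other kind of editor, which was not tested.

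Shared sites made up a larger part of dCas13d-ADAR lists than of REPAIR.t1 lists. dCas13d-ADAR libraries held 162 and 171 shared sites with the EZH2 guide and 158 and 152 with the NT guide, and REPAIR.t1 libraries held 96 and 100 with EZH2_A22 and 90 and 107 with NT. As a share of each list this was 2.78% ± 0.135 for dCas13d-ADAR (SD, n = 4, range 2.62% to 2.95%) and 2.12% ± 0.234 for REPAIR.t1 (SD, n = 4, range 1.92% to 2.46%), so the 2 editors did not overlap. The means differed by 0.656 percentage points. Since listing chose the sites, and 140 came in through dCas13d-ADAR alone and 47 through REPAIR.t1 alone, this is a description with no test. Over sites found without DECOR replicate 1 the difference was 0.333 points, over sites in both DECOR libraries it was 0.148 points, and with 1 dCas13d-ADAR library left out it was 0.598 to 0.708 points. In the DECOR lists the shared sites were 3.83% and 3.55%.

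In every library the shared sites had a lower median level than the rest of the list. In dCas13d-ADAR libraries the median level was 0.239 and 0.226 for shared sites with the EZH2 guide, where the other sites were at 0.267 and 0.267. With the NT guide it was 0.214 and 0.228, where the others were at 0.267 and 0.269. In REPAIR.t1 libraries the shared sites were at 0.209 and 0.220 with EZH2_A22 and at 0.209 and 0.2 with NT, where the others were at 0.263, 0.263, 0.250 and 0.250. Over the 8 libraries the difference averaged -0.0439 and was negative in 8 of 8 (two-sided exact permutation test by sign flips, p = 0.00781, the smallest possible). After Benjamini-Hochberg adjustment over 6 tests of library values, 2 of them on listing and not given here, this exact p was 0.0343. The libraries share sites, so they are not independent looks at this difference. The other sites also keep those of REPAIRv2, which the rule took out of the shared set, so the rule itself widened the gap. With REPAIRv2 lists ignored in choosing the shared sites, the difference was -0.0327 (two-sided exact permutation test by sign flips, p = 0.00781). When levels under 0.2 were left out of all lists the difference was -0.000777 (exact permutation p = 0.922). In DECOR the shared sites were at 0.192 and 0.2, and the other DECOR sites at 0.211 and 0.208.

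**Figure D3:**
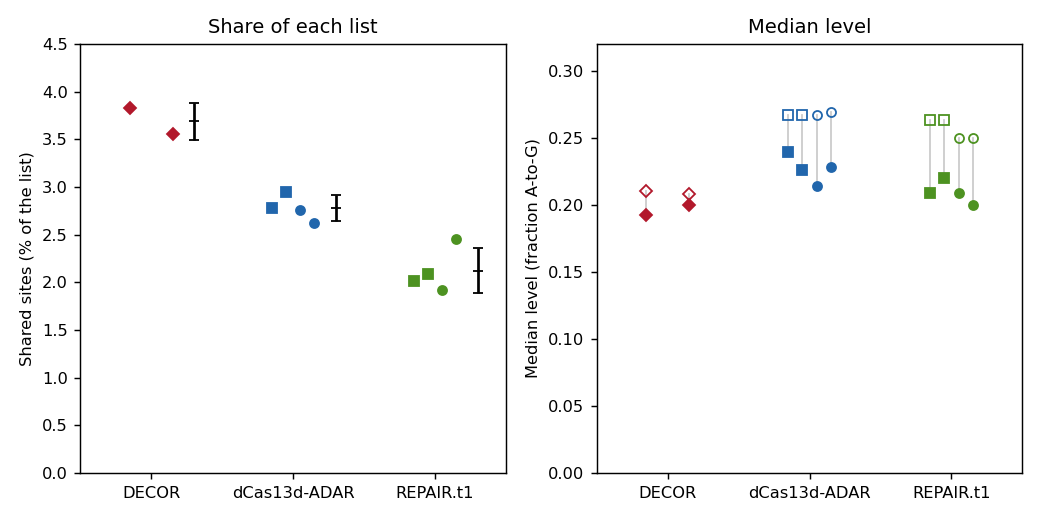
Left, shared sites as a percent of each list, with 1 point per library and the mean and SD beside each editor; right, the median level of shared sites (filled) and of all other sites of the same list (open), joined per library. Diamonds are MALAT1, squares EZH2 and circles NT guides; filled points lie below open points in all 10 libraries, and dCas13d-ADAR lists (2.62% to 2.95%) lie above REPAIR.t1 lists (1.92% to 2.46%).

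The lower level was also seen among sites listed equally often, in 1 to 7 of the 8 libraries. For sites in 1 of the 8 libraries the median level was 0.182 over shared sites and 0.250 over sites in no DECOR list. Only the latter include sites of REPAIRv2, which the rule kept out of the shared set. For sites in 4 of the 8 these medians were 0.221 and 0.261, and for sites in 7 of the 8 they were 0.253 and 0.289. For sites in all 8 the medians were 0.330 and 0.337, which is the smallest of the 8 gaps. At that step the rule had left out 7 sites that REPAIRv2 also listed. Their means over the 8 libraries were 0.293, 0.330, 0.346, 0.365, 0.559, 0.633 and 0.665. The shared sites were the lower set at the steps from 1 to 7 libraries. For sites in all 8 the order of the medians cannot be separated from the rule, and no lower level is claimed there. This comparison was not tested, and it was not read with the left-out sites put back.

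Levels under DECOR and under the Cas13-based editors went together over the shared sites. The mean level was 0.191 at the median shared site in DECOR (range 0.0718 to 0.650) and 0.208 in dCas13d-ADAR and REPAIR.t1 (range 0.0645 to 0.737). Across the 330 sites Pearson's r between these means was 0.62 and Spearman's rho 0.60, as a description over sites that are not independent and that were all listed above a threshold. For comparison, r between the 2 DECOR libraries was 0.67 over the 89 shared sites in both and 0.69 over the 1978 other sites in both. Between dCas13d-ADAR and REPAIR.t1 it was 0.78 over 143 shared sites and 0.75 over 5660 others. At 198 sites (60.0%) the DECOR mean and the mean of the other editors were within 0.05 of each other, and at 8 they were more than 0.2 apart.

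**Figure D4:**
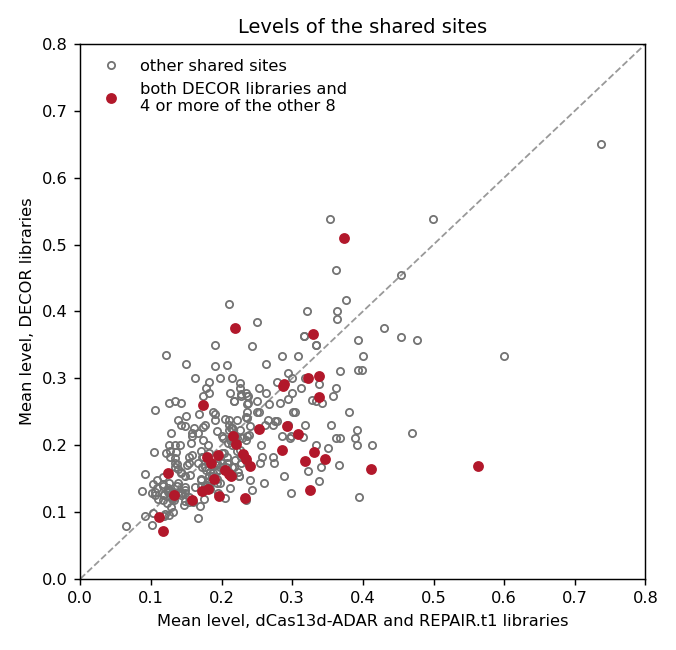
Mean level in DECOR libraries (y axis) against mean level in dCas13d-ADAR and REPAIR.t1 libraries (x axis) for the 330 shared sites; the dashed line marks equal levels. Filled points are the 40 sites in both DECOR libraries and at least 4 of the other 8, of which 32 lie below the line.

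DECOR was the lower editor at 186 of the 330 sites and the higher at 139. The direction changed with the number of the 8 libraries that listed a site. Over shared sites in 1 of the 8, the median level was 0.211 in DECOR and 0.182 in the other editors. These medians were 0.190 and 0.194 for sites in 2, and 0.170 and 0.330 for sites in all 8. Among the 40 sites in both DECOR libraries and at least 4 of the other 8, DECOR was lower at 32, with a median difference of -0.0411. This direction belongs to sites chosen by such listing and not to all shared sites. Among these 40, the largest differences in the other direction were at position 49718638 on chromosome 3, with 0.333 and 0.417 in DECOR and 0.182 to 0.286 in the 4 other libraries that listed it, and at position 121436240 on chromosome 10, described below. Position 99693477 on chromosome 7 averaged 0.261 in DECOR and 0.174 in 7 of the 8 others, and position 49995405 on chromosome 19 averaged 0.158 and 0.124. Position 133136315 on chromosome 6 was at 0.4 and 0.333 in DECOR and at 0.235 to 0.5 in all 4 REPAIR.t1 libraries, and no dCas13d-ADAR library listed it.

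The 12 sites listed in all 10 libraries allow the fullest comparison, and they are lettered A to L by falling DECOR level. Listing in all 8 dCas13d-ADAR and REPAIR.t1 libraries picks shared sites with high levels there, so the DECOR differences below hold for these sites only. Averaged over these 12 sites, the level was 0.210 ± 0.0103 in DECOR (SD, n = 2), 0.366 ± 0.0295 in dCas13d-ADAR (n = 4) and 0.278 ± 0.00893 in REPAIR.t1 (n = 4). Both DECOR libraries (0.203 and 0.218) lay below all 8 others (0.265 to 0.409). This comparison was added after the data were seen, on sites whose choice favours high levels in the 8 other libraries. Its p-values, and those of the site-by-site fit of DECOR below, cannot be parted from that choice. DECOR minus the 8 libraries was -0.112 (two-sided exact permutation p = 0.0222, the smallest that 45 arrangements allow, adjusted 0.0343). With either DECOR library left out the exact p was 0.111, the smallest possible then. With a dCas13d-ADAR library left out the exact p was 0.0278 to 0.0833 and the difference -0.108 to -0.0885. Only sites A and B stayed at or above 0.2 in all 10 libraries, and over these 2 the difference was 0.0508 (exact permutation p = 0.333).

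Site by site, limma was run on log2 odds with a threshold of 0.05 for the adjusted p. Of the 12 sites 7 passed, 6 lower and 1 higher in DECOR, and the median difference was -0.87. Of all 14 sites in all 10 libraries, which are these 12 and 2 that REPAIRv2 also listed, 57.1% passed (50% lower, 7.14% higher), so the shared sites are nearly the whole of what was tested. The test gave all 14 sites 1 common spread. With each site's own spread 5 of the 12 passed, and sites A and L did not. The adjusted p was then 0.000567 at G, 0.00115 at H, 0.00950 at J and F, and 0.0171 at E (limma fit without moderation). Each was larger than the value printed for that site below. With 1 DECOR library left out, the remaining one is assumed to vary like the other editors' libraries. Without DECOR replicate 1, site F had a difference of -1.07 (limma adjusted p = 0.0570) and site L of -0.88 (limma adjusted p = 0.107). Without DECOR replicate 2, site E had a difference of -0.75 (limma adjusted p = 0.153). At 5 of the 12 both DECOR libraries lay below all 8 others, as they did at 42.9% of the 14.

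**Figure D5:**
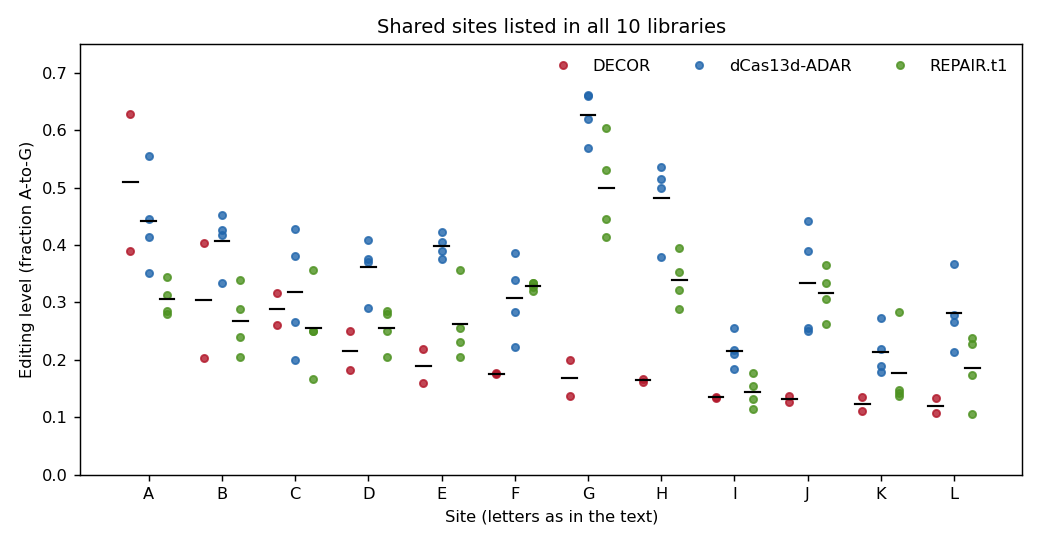
Editing level (y axis, fraction) at the 12 sites in all 10 libraries, lettered as in the text; points are libraries and bars are means per editor. The DECOR mean is the lowest at the 9 letters D to L, furthest apart at G (0.136 and 0.2 against 0.415 to 0.660), and DECOR has the highest mean at A.

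Site G, position 75113460 on chromosome 11, differed most. Its level was 0.2 and 0.136 in DECOR. It was 0.660 and 0.619 in dCas13d-ADAR with EZH2 and 0.660 and 0.569 with NT, and 0.444 and 0.415 in REPAIR.t1 with EZH2_A22 and 0.531 and 0.604 with NT. Both DECOR values lay below all 8 others, and the log2 odds difference was -2.63 (SE 0.34, limma adjusted p = 6.35e-11).

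Site H, position 60668789 on chromosome 11, was at 0.162 and 0.167 in DECOR. It was at 0.5 and 0.536 in dCas13d-ADAR with EZH2 and at 0.378 and 0.514 with NT, and REPAIR.t1 gave 0.289 and 0.321 with EZH2_A22 and 0.353 and 0.395 with NT. The log2 odds difference was -1.75 (limma adjusted p = 6.00e-06), and again the DECOR libraries were lowest without overlap.

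Site J, position 122931900 on chromosome 11, was at 0.137 and 0.127 in DECOR, against 0.250 to 0.442 in dCas13d-ADAR and 0.263 to 0.365 in REPAIR.t1 (log2 odds difference -1.58, limma adjusted p = 3.69e-05). Its dCas13d-ADAR values split by guide, with 0.390 and 0.442 for EZH2 and 0.250 and 0.255 for NT, and the limma test for guide did not pass there. Site F, position 146015798 on chromosome 8, was at 0.175 and 0.176 in DECOR, against 0.222 to 0.386 in the 8 others (difference -1.08, limma adjusted p = 0.00560). Site E, position 35101241 on chromosome 9, averaged 0.190 ± 0.0421 in DECOR (SD, n = 2), 0.398 ± 0.0203 in dCas13d-ADAR and 0.262 ± 0.0666 in REPAIR.t1 (n = 4 each; limma adjusted p = 0.00681). Site L, position 39711447 on chromosome 22, averaged 0.120 ± 0.0185 in DECOR, 0.282 ± 0.0635 in dCas13d-ADAR and 0.186 ± 0.0608 in REPAIR.t1 (limma adjusted p = 0.00639), and its lowest REPAIR.t1 library, at 0.105, lay under both DECOR libraries.

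Site A, position 121436240 on chromosome 10, ran the other way. DECOR gave 0.629 and 0.390, dCas13d-ADAR 0.351 to 0.556 and REPAIR.t1 0.280 to 0.345. The DECOR libraries lay far apart here and overlapped with dCas13d-ADAR. The log2 odds difference was 0.81 (SE 0.34, limma adjusted p = 0.0341) and without DECOR replicate 1 it was 0.12 (limma adjusted p = 0.837). Without REPAIR.t1 NT replicate 2 it was 0.78 (limma adjusted p = 0.0640), and without dCas13d-ADAR EZH2 replicate 1 it was 0.72 (limma adjusted p = 0.0681).

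The remaining 5 sites did not pass. Site C, position 48069491 on chromosome 21, averaged 0.288 in DECOR, 0.319 in dCas13d-ADAR and 0.256 in REPAIR.t1, a difference of 0.05 in log2 odds (SE 0.34, limma adjusted p = 0.880). Site B, position 57038689 on chromosome 12, had 0.203 and 0.404 in DECOR and 0.205 to 0.453 in the others, so its direction rested on which DECOR library was read. Site D, position 35804547 on chromosome 22, and site K, position 18799396 on chromosome 16, averaged 0.216 and 0.123 in DECOR, and 0.308 and 0.196 over the 8 others (limma adjusted p = 0.0749 and 0.0592). Site I, position 75111800 on chromosome 11, averaged 0.135 in DECOR, 0.216 in dCas13d-ADAR and 0.144 in REPAIR.t1 (limma adjusted p = 0.262).

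Between the 2 Cas13-based editors, dCas13d-ADAR gave higher levels at the shared sites that all 8 of their libraries listed. Over the 23 shared sites listed in all 8 libraries dCas13d-ADAR libraries averaged 0.363 ± 0.0149 and REPAIR.t1 libraries 0.283 ± 0.0152 (SD, n = 4 each). The lowest dCas13d-ADAR library, at 0.344, lay above the highest REPAIR.t1 library, at 0.295. They differed by 0.0805 (exact permutation test, two-sided, p = 0.0286, the smallest that 70 arrangements allow, adjusted 0.0343). The median over all shared sites that each library listed averaged 0.227 in dCas13d-ADAR and 0.209 in REPAIR.t1. That difference of 0.0175 did not pass (two-sided exact permutation p = 0.0571, adjusted 0.0571). dCas13d-ADAR had the higher mean at 22 of the 23, beside 74.2% of all 609 sites tested. The median log2 odds difference was 0.69 over the 23 and 0.34 over the 609. None of the 23 passed singly in limma (0 of 23; 9 at an unadjusted p below 0.05, smallest adjusted p = 0.107), beside 7.22% of the 609 (6.57% higher and 0.657% lower). That background share was itself unstable, since 44 sites passed with all libraries, 10 without dCas13d-ADAR NT replicate 1, 18 without REPAIR.t1 EZH2_A22 replicate 2, 19 without REPAIR.t1 NT replicate 2 and 0 with each site's own spread (smallest adjusted p = 0.0965, limma fit without moderation). Without REPAIR.t1 NT replicate 1, or without REPAIR.t1 EZH2_A22 replicate 1, 1 shared site passed. At 5 of the 23 all dCas13d-ADAR libraries lay above all REPAIR.t1 libraries, beside 11.5% of the 609, and at 0 they lay below, beside 1.81%. In the 59 to 72 shared sites held by a pair of libraries, 1 of each editor, the mean difference was 0.0446 to 0.0701 over 16 pairs.

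No guide effect common to both editors was detected at the shared sites. The test pooled the EZH2 and EZH2_A22 guides, and effects that differ between the editors were not modelled. In the same limma fit, with EZH2 libraries against NT libraries of both editors, 0 of the 23 shared sites passed (0 at an unadjusted p below 0.05, smallest adjusted p = 0.959), beside 0% of the 609 sites (23 at an unadjusted p below 0.05). The 23 sites were higher with the EZH2 guide at 13, beside 55.3% of the 609, and lower at 10, with a median log2 odds difference of 0.05. The mean level over them was 0.360 with EZH2 and 0.366 with NT in dCas13d-ADAR, and 0.291 with EZH2_A22 and 0.274 with NT in REPAIR.t1. Within 1 editor, 2 libraries against 2 cannot give an exact p below 0.333, so these were not tested.

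High levels were rare in the lists, and among the shared sites as well. The other sites of a list again keep those of REPAIRv2, which the rule took out of the shared set. A level of at least 0.5 was found at 0.958% ± 0.685 of shared sites and 1.72% ± 0.050 of the others in DECOR libraries (SD, n = 2). In dCas13d-ADAR libraries it was found at 4.48% ± 1.19 of shared sites and 6.95% ± 0.663 of the others (SD, n = 4). In REPAIR.t1 libraries it was found at 2.09% ± 2.01 and 4.66% ± 0.387 (SD, n = 4), and in REPAIR.t1 NT replicate 1 the shared sites had the higher share (4.44% and 4.33%). A mean level of at least 0.5 was reached at 4 sites in DECOR and at 3 in the other editors, and at 1 site in both; of these, the sites on chromosomes 6 and 19 that follow were picked after their values were seen. The 1 site was position 42855962 on chromosome 6, at 0.650 in DECOR replicate 2, at 0.760 in dCas13d-ADAR with EZH2 (replicate 2) and at 0.714 with NT (replicate 1). Position 42855954, 8 bases away, was at 0.538 in the same DECOR library, at 0.5 and 0.583 in dCas13d-ADAR with EZH2, at 0.519 with NT (replicate 1) and at 0.393 in REPAIR.t1 with NT (replicate 1). Position 42855979 was at 0.361 in that DECOR library, at 0.4 and 0.609 in dCas13d-ADAR with EZH2 and at 0.4 with NT, and at 0.407 in REPAIR.t1 NT. The 3 sites lay within 26 bases and were missing from DECOR replicate 1 and from most REPAIR.t1 libraries. On chromosome 19, position 13883962 was at 0.538 in DECOR replicate 2 and at 0.4 and 0.308 in dCas13d-ADAR with EZH2. Position 13883988 was at 0.333 in that DECOR library and at 0.6 in dCas13d-ADAR with NT (replicate 2). The remaining high sites were A in DECOR and G in the other editors, described above.

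Other high sites were recurrent in the Cas13-based editors. Position 32264382 on chromosome 20 was in all 8 libraries, at 0.533 on average in dCas13d-ADAR and 0.407 in REPAIR.t1, and at 0.217 in 1 DECOR library. Position 10523087 on chromosome 1 was at 0.375 in 1 DECOR library, at 0.494 on average in dCas13d-ADAR and at 0.366 in REPAIR.t1. Position 6500041 on chromosome 11 averaged 0.179 in DECOR, 0.425 in dCas13d-ADAR and 0.240 in 3 REPAIR.t1 libraries. Among sites in both DECOR libraries, high DECOR levels were also found at position 111732727 on chromosome 9 (0.364 and 0.333) and position 144663320 on chromosome 8 (0.357 and 0.314), which were in 2 and 1 REPAIR.t1 libraries and in none of dCas13d-ADAR. A mean between 0.4 and 0.6 in DECOR and in the others at the same time was found at 2 of the 330 sites, and 117 (35.5%) were under 0.2 in both.

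The shared sites were spread over 301 places when sites within 1000 bases were grouped. Of these, 274 held 1 shared site, 25 held 2 and 2 held 3. The second place with 3, chosen after its values were seen, was at positions 32095843, 32095846 and 32095852 on chromosome 1, where 10 bases held no other listed site. Position 32095852 was at 0.250 and 0.207 in DECOR, at 0.297 to 0.382 in dCas13d-ADAR and at 0.133 in 1 REPAIR.t1 library. The other 2 sites there were at 0.182 and 0.129 in DECOR replicate 1.

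Shared sites usually had another listed site close by. Within 50 bases, 63.3% of the 330 had a neighbour of any editor, beside 53.2% of the 8955 sites of DECOR alone and 44.2% of the 16682 sites of dCas13d-ADAR or REPAIR.t1 without DECOR. Among sites in both DECOR libraries the shares were 69.7% of 89 shared sites and 64.4% of 1972 sites of DECOR alone. Within 2 bases the order differed, with 4.85% of shared sites, 7.73% of the sites of DECOR alone and 5.03% of the others. Chromosome 19 held 45 shared sites (13.6%), beside 9.70% of the sites of DECOR alone and 9.92% of those of dCas13d-ADAR or REPAIR.t1 without DECOR. Chromosome 1 held 42 (12.7%, beside 11.8% and 11.9%) and chromosome 11 held 29 (8.79%, beside 6.51% and 6.34%). Chromosomes 15 and 17 held few, 3 and 14 (0.909%, beside 2.16% and 2.45%, and 4.24%, beside 5.96% and 6.62%). These shares carry no test, since neighbouring sites are not independent.

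The 13 sites that the rule left out because REPAIRv2 also listed them had higher medians. Their median was 0.250 in DECOR (0.0851 to 0.581), 0.365 in dCas13d-ADAR and REPAIR.t1 (0.260 to 0.665) and 0.301 in REPAIRv2 (0.103 to 0.667), and 7 of them were in all 8 libraries. Just inside the rule, the 95 sites in 1 DECOR and 1 other library had a median of 0.212 in DECOR (0.0794 to 0.455) and 0.194 in the other library (0.0645 to 0.6). Position 235277158 on chromosome 1 and position 3984177 on chromosome 19 were the 2 left-out sites in all 10 libraries, named after their values were seen. The first was at 0.214 on average in DECOR, 0.687 in dCas13d-ADAR and 0.643 in REPAIR.t1, and the second at 0.267, 0.344 and 0.241.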

How the data were processed

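Per the file headers, each deposited list names a chromosome, a position and the A-to-G rate there, which is a fraction. cutadapt, STAR 2.6.1b, hg19 and GRCh37 are named in the submitters' processing notes with no role or order. How sites were called, and whether genomic variants were removed, is not stated in the labels or headers. Levels ran between 0.0597 and 0.923. Shared sites were found by exact position. The sites, tests and lists were chosen with earlier results of these data known.

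Values per library were tested by exact permutation, two-sided. The planned test of shared sites as a share of each list is not given, since listing chose the sites. A logistic model was planned for read counts; the lists hold none, so the planned fallback was used. Levels per site were tested on log2 odds (0.01 added to the level and its complement) in limma 3.58.1, over all 609 sites in the 8 dCas13d-ADAR and REPAIR.t1 libraries with editor and guide as terms, or over all 14 sites in all 10 libraries with a mean per editor, with Benjamini-Hochberg adjustment. The test of the mean over 12 sites in DECOR was added after seeing the data. Alternatives were minimum levels, stricter membership, other windows, each library left out, a replicate block and other scales. On simulated data, 57% and 97% of changes of 1 and 2 log2 units were recovered for the 2 Cas13-based editors over 609 sites.

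Named sites were those in all 10 libraries, the 5 highest in DECOR among those in both DECOR libraries, the 5 highest in the other editors among those in at least 4 of their 8 libraries, the 5 largest differences in each direction among sites meeting both conditions, and those passing a test. Genes, a list of known ADAR targets and sequence context were not analysed here. Calculations used Python 3.11.15, numpy 2.4.6, pandas 2.3.3, scipy 1.17.1, matplotlib 3.10.9 and R 4.3.3.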

Additional observations from a re-analysis of the deposited data

Results flagged for a closer look

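At site K, position 18799396 on chromosome 16, REPAIR.t1 EZH2_A22 replicate 1 stood at a level of 0.283, far from the other 3 REPAIR.t1 libraries (0.137 to 0.148). It was the 1 such value among 36 sets of 4 libraries examined; chance alone gives about 1 in 20.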

How the results depend on the processing

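The number of shared sites was 140 with a minimum level of 0.2, 89 with sites in both DECOR libraries, 209 with sites in at least 2 of the 8 other libraries and 2935 with positions within 50 bases taken as shared; with 1 library left out it was 208 to 325. At a minimum level of 0.2 the difference of shared from other sites was -0.000777, DECOR minus the Cas13-based editors was 0.0508 over 2 sites (chosen after seeing the data), 54.3% had a neighbour within 50 bases, 17 sites passed between dCas13d-ADAR and REPAIR.t1, and 1 site and 0 shared sites passed for DECOR (the list holds fewer sites). With sites in both DECOR libraries the excess share in dCas13d-ADAR lists was 0.148 points and 69.7% had a neighbour. Windows of 2 and 200 bases gave 4.85% and 81.8%. Over pairs of libraries dCas13d-ADAR minus REPAIR.t1 was 0.0547. With REPAIRv2 lists ignored 1 shared site passed between these editors, and without moderation of the spread, chosen after seeing the data, 0 of 609 sites passed (smallest adjusted p = 0.0965). With 1 library left out, the excess share was 0.333 to 0.768 points, the difference from other sites -0.0568 to -0.0365, DECOR minus the others -0.131 to -0.0885, dCas13d-ADAR minus REPAIR.t1 0.0661 to 0.0886, sites passing between these editors 10 to 44 (10 without dCas13d-ADAR NT replicate 1, 18 without REPAIR.t1 EZH2_A22 replicate 2, 19 without REPAIR.t1 NT replicate 2) and shared sites passing 0 to 1. With 1 library left out, the log2 odds difference ran between -0.93 and 0.43 at site B, turning to 0.43 without DECOR replicate 1, and between -0.14 and 0.24 at site C, which turned to -0.14 without DECOR replicate 2, -0.07 without REPAIR.t1 EZH2_A22 replicate 1, -0.000216 without dCas13d-ADAR NT replicate 2 and -0.09 without dCas13d-ADAR EZH2 replicate 1. Except where a smaller number of sites or libraries is the reason, the cause was not tested. The share on chromosome 19 stayed between 11.5% and 15.2% with a library left out.

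Libraries share replicate numbers in their titles, but deviations of same-numbered libraries were uncorrelated (r from -0.0146 to 0.0553 over 6 pairs of groups), so the numbers were not taken to pair them. With the replicate number as a block, 44 sites passed between dCas13d-ADAR and REPAIR.t1, 0 for the guide and 8 for DECOR (7 of them shared sites), and no call count changed. Sequence context and gene lists were not run.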
